A study of Mus musculus with 6 samples.

Results

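Lin28a, Lin28b, Trim71, Zfp36, Zfp36l1, Zfp36l2, Msi1, Msi2, Qk and Esrp1 encode proteins that bind RNA and that are known as regulators of stem cell or glial identity. These 10 genes were chosen by name among 35325 annotated genes (protein-coding or long non-coding RNA), with earlier results of these data known. All 10 were among the 16713 that passed the filter on low counts. They are described here from the transcription start sites mapped in mouse embryonic stem cells (mESCs) and in mouse oligodendrocyte progenitor cells (mOPCs). Cap analysis of gene expression (CAGE) sequences a short tag from the capped 5′ end of an RNA. Tags at a position count the 5′ ends sequenced there, with copies made in amplification included. The study made these maps from nuclear RNA, 3 libraries per cell type, to set RNA expression and promoters beside its RNA–chromatin contact maps. The mESCs were the male line R08, kept without feeder cells in serum and leukemia inhibitory factor. The mOPCs were oli-neu, an immortalized line derived from mOPCs and expanded with N2 supplement, thyroid hormones, basic fibroblast growth factor and platelet-derived growth factor-BB. Neither line was perturbed, and each cell type is represented by 1 line. The lines are separate, so words such as rose, fell, gained or remained below compare the lines and describe no change over time.

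RNA-binding proteins act after transcription. LIN28 proteins bind the precursor of the microRNA let-7 and keep it from being processed, and TRIM71 is a ubiquitin ligase that represses mRNAs in early embryos and is itself a classical let-7 target. The ZFP36 family binds AU-rich elements in mRNA tails and recruits the deadenylation machinery, Musashi proteins control translation in neural stem cells, and Quaking and ESRP1 direct alternative splicing in glia and in epithelia. All levels below are counts per 1000000 tags of the library (CPM) of the tags within 500 bp of any annotated 5′ end of a gene, on its strand. A tag is read from the 5′ end of an RNA, so these levels do not scale with gene length.

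Libraries held 16657021 to 40928704 tags, of which 82.8 to 83.4% in mESCs and 78.2 to 78.8% in mOPCs lay near the 5′ end of an annotated gene. A single position held 5.38 to 5.92% of all tags in mOPC libraries, against at most 0.67% in mESC libraries. The labelled cell types were checked against their markers. All 9 mESC markers were lower in mOPCs, where Pou5f1, Nanog, Zfp42, Utf1, Tdgf1 and Dppa5a had 0 tags and Sox2 kept 23.3 ± 1.07 CPM (SD, n = 3). All 7 tested mOPC markers of 8 chosen here were higher in mOPCs. Against 10.5 to 11.7 CPM in mESCs, the list summed to 2856 to 3061 in mOPCs. Olig2 reached 425 ± 11.4 and Sox10 337 ± 8.42 CPM, but Pdgfra reached only 8.33 ± 0.44 CPM there and Nkx2-2 had 0 tags. Libraries of a cell type share a library label that differs from that of the other cell type, so cell line and library preparation cannot be told apart. In these bulk samples, fewer cells that express a gene and less RNA per cell cannot be told apart either. The labels do not say whether the libraries of a line came from separate cultures, so p-values measure only the spread between these libraries, which may be technical.

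Of the 10 regulators, 7 were lower in mOPCs than in mESCs, 2 were higher, and Qk did not pass the test. The 7 lower genes were Lin28a, Esrp1, Zfp36, Lin28b, Zfp36l1, Trim71 and Msi2, and the higher ones were Zfp36l2 and Msi1. The same edgeR quasi-likelihood test (Benjamini-Hochberg adjusted p under 0.05) called 91.2% of the 16713 genes that passed the filter on low counts, 43.4% as higher in mOPCs and 47.8% as lower. A call alone therefore sets no gene apart in this comparison. Libraries of the cell types did not overlap for any of the 10 genes, nor for 91.4% of all genes tested. At least 16-fold lower in mOPCs were 4 of the 10, Lin28a, Esrp1, Zfp36 and Lin28b, as were 16.0% of all genes tested. The median log2 fold change of the 10 genes, mOPCs over mESCs, was −3.33, and that of all genes tested was −0.12. Since the genes were chosen with earlier results of these data known, this difference describes them and tests nothing. Lin28a, Esrp1 and Zfp36, with 5 mOPC tags or fewer, passed the filter through their mESC counts.

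**Figure D1:**
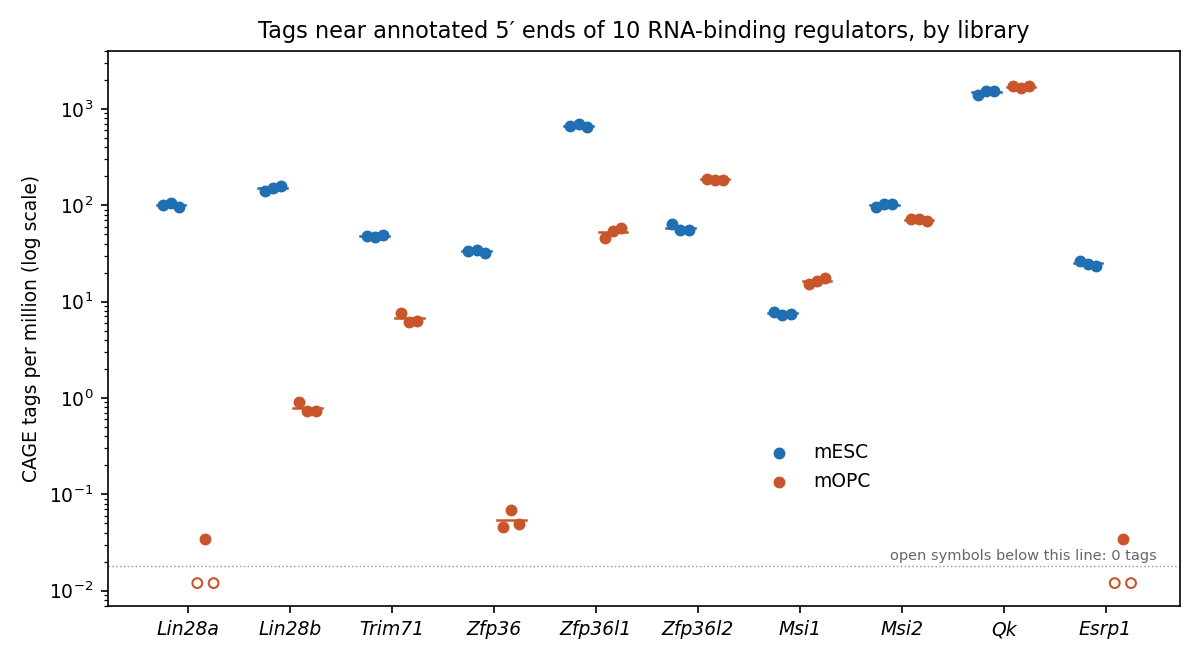
CAGE CPM (log scale) near the annotated 5′ ends of each gene, 1 point per library, in mESCs (blue) and mOPCs (orange), with lines for means where every library has tags and open symbols for libraries with 0 tags. Lin28a and Esrp1 have a single tag in 1 of the 3 mOPC libraries, whereas Qk lies at 1404 CPM or more in all 6.

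**Figure D2:**
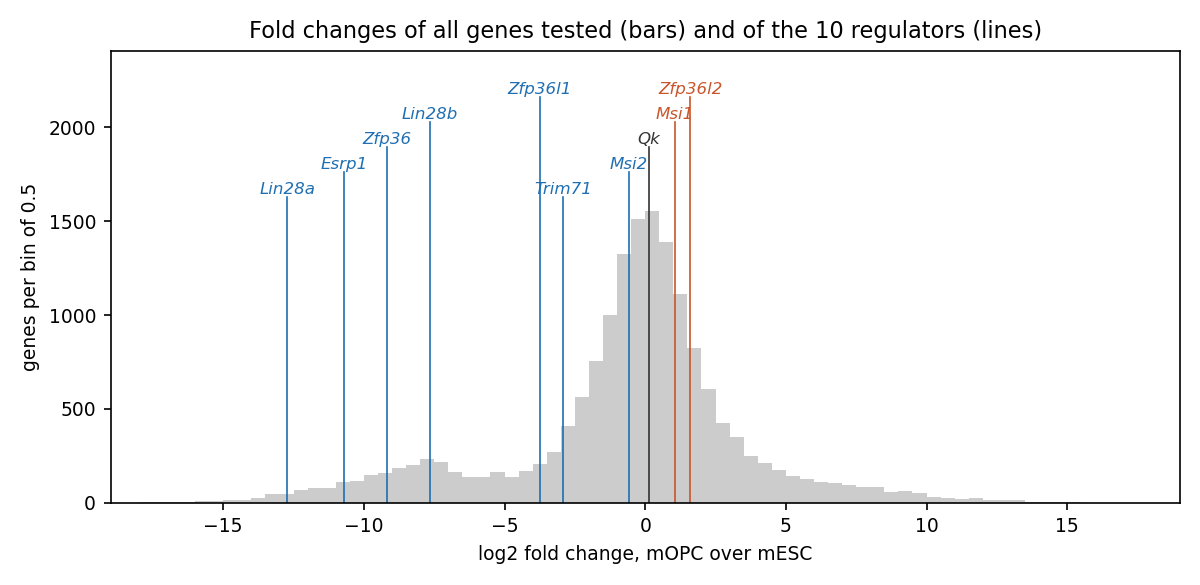
Number of genes per bin of log2 fold change, mOPCs over mESCs, for the 16713 genes tested (gray bars), with the 10 regulators as lines (blue, lower in mOPCs; orange, higher; black, not called). Lin28a, Esrp1, Zfp36 and Lin28b lie in the left shoulder of the distribution and Qk near its centre.

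Lin28a (ENSMUSG00000050966.9, chr4:134003330-134018841, minus strand) was all but absent from mOPCs. It had 101, 104 and 96.2 CPM in mESC replicates, and 0, 0.035 and 0 among the mOPC replicates. These values are 7333 tags in mESCs against 1 tag in mOPCs, a depth-corrected ratio of 9214 with a 95% interval of 1653 to 363990 that covers counting error only. The test gave a log2 fold change of −12.72 (SE 0.23, edgeR adjusted p = 6.44e-71). Each SE given here is the absolute log2 fold change divided by the square root of the F statistic. For Lin28a, Esrp1 and Zfp36, with 5 mOPC tags or fewer, it does not cover counting error. The interval of the ratio does.

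Lin28b (ENSMUSG00000063804.8, chr10:45376620-45486395, minus strand), the other let-7 inhibitor, had more tags than Lin28a in mESCs when all of its annotated 5′ ends are counted. At its coding start alone it had fewer, 43.5 CPM against 99.8 CPM in the main start region of Lin28a. Its levels over all 5′ ends were 141, 151 and 158 CPM in mESCs, and 0.91, 0.73 and 0.73 in mOPCs. The mOPC libraries stand close together and far below the mESC libraries, with a log2 fold change of −7.65 (SE 0.14, edgeR adjusted p = 7.70e-72). Summed over both genes, LIN28 levels were 251 ± 7.30 CPM in mESCs and 0.80 ± 0.096 in mOPCs, a 312-fold difference.

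What remained of Lin28b in mOPCs did not start at the coding promoter. GENCODE places the coding transcript at an inner 5′ end, downstream of a start region that holds the 5′ ends of non-coding processed transcripts. The inner region took 28.5, 31.1 and 27.3% of the Lin28b tags in mESCs and 0, 0 and 0% in mOPCs. That is 3105 tags against 0, so the coding region was at least 1301-fold lower in mOPCs, taking 3 tags over the group as the limit that a count of 0 allows. All 71 mOPC tags within 500 bp of an annotated 5′ end of Lin28b lay in the outer region, which was 135-fold lower than in mESCs. Of these, 43 lay within 100 bp of such an end. Inside the gene, 29 of 53 mOPC tags and 2452 of 7527 mESC tags lay over 500 bp from any annotated 5′ end. The use of annotated starts of Lin28b differed between the cell types (edgeR diffSpliceDGE, adjusted p = 1.33e-09). It also differed for Msi2 and Qk, and for 72.4% of the 3373 genes with several start regions that passed the filter. With windows of 100 bp it differed for the same 3 regulators and for 75.5% of 3676 genes. For Msi2, the 2 regions compared with these windows both lay within its main start region. Lin28a and Esrp1, with 1 tag each in mOPCs, offer no start use there to compare. The position with the most tags in either cell type, chr10:45486452, lay 57 bp upstream of the annotated end of the outer transcript and in no annotated exon.

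The sequences around the starts of Lin28a and of the coding transcript of Lin28b are given to show where RNAs began in mESCs, from the RefSeq promoter windows of GRCm38.p6 (the assembly of mm10, 250 bases before to 50 after a start). Such windows matched 7 of the 10 genes, with 9 windows. Capitals mark positions that held at least 5% of the tags of the start region, as deposited. They stand at chr4:134018779-134018901 and chr10:45470231-45470331, both on the minus strand.
Lin28a in mESCs: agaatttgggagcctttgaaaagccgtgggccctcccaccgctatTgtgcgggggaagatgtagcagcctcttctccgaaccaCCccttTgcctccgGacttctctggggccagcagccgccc
Lin28b in mESCs: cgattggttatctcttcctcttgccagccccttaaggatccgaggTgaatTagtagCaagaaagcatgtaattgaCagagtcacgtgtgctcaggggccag
The 5 capitals of Lin28a held 58.4% of its 7282 tags in the region, and the 4 of Lin28b held 50.9% of the 3105 tags of the inner region. Transcription usually begins at a purine that follows a pyrimidine. Over all RefSeq windows, 6.85 to 7.82% of tags had the deposited position at such a purine, and 64.4 to 67.7% had it 1 base downstream, in every library and in both cell types. Deposited positions are therefore to be read as 1 base before that step for most tags. The cause was not tested, and counts per gene do not depend on it.

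Trim71 (ENSMUSG00000079259.2, chr9:114507133-114564369, minus strand) was lower in mOPCs and its RNAs started elsewhere. It had 47.8, 47.0 and 49.4 CPM in mESCs, against 7.66, 6.21 and 6.28 in mOPCs. The log2 fold change was −2.92 (SE 0.11, edgeR adjusted p = 1.85e-45), about 7.56-fold. In mESCs the median start lay 46 bp downstream of the annotated 5′ end in every library, and in mOPCs it lay 244, 251 and 243 bp downstream. The position that led in mESCs, 46 bp from the annotated end, took 18.2 ± 1.5% of the tags of the region in mESCs and 0.71 ± 0.79% in mOPCs. The positions that led in mOPCs, at 273 and 251 bp, took 11.3 ± 1.8% and 10.4 ± 1.32% there and under 1% in each mESC library. All of these positions lie in the annotated UTR of the gene. The share of Trim71 tags within 100 bp of the annotated end was 90.1 ± 0.38% in mESCs and 32.8 ± 2.06% in mOPCs, and with that window alone the log2 fold change was −4.40. Tags at the mESC positions thus fell more than the gene total. The mESC start is shown here, at chr9:114564320-114564378 on the minus strand, with capitals as above; no position of this stretch reached 5% of the tags in mOPCs.
Trim71 in mESCs: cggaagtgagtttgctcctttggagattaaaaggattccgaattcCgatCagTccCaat

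Median starts moved by at least 20 bp, with no overlap between libraries, in 2 of the 6 regulators that had at least 50 tags in every library, Trim71 and Msi2, and in 17.4% of 10182 genes with such depth. The width that holds the central 10 to 90% of start tags did not overlap between the cell types in 4 of these 6 genes, and in 62.9% of all such genes. Trim71 and Msi2 were wider in mOPCs, as were 32.6% of all such genes, and Msi1 and Zfp36l2 were narrower. Width was 71.7 bp on average in mESCs and 332 bp in mOPCs for Trim71. Each comparison of 3 libraries with 3 by a two-sided exact permutation test can give no p below 0.1, and 0.1 was the value for each of the separated widths and medians.

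**Figure D3:**
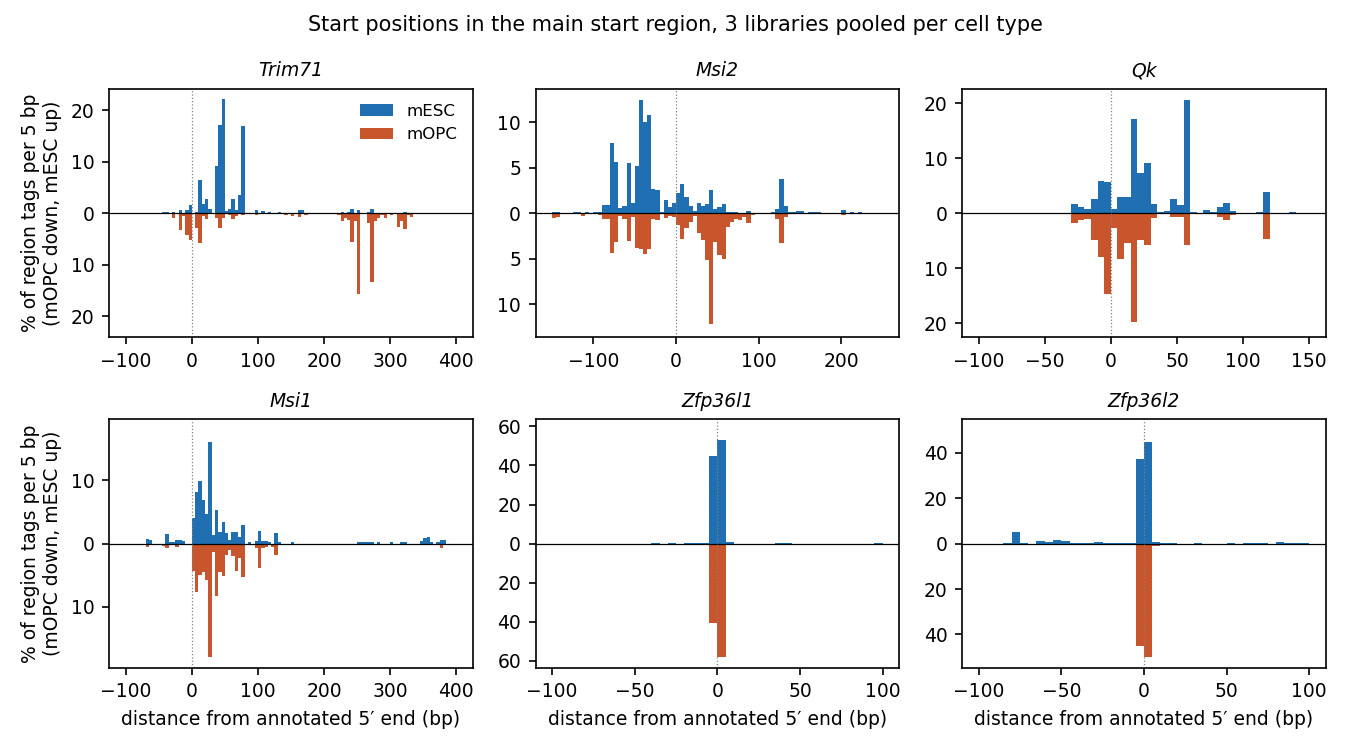
Share of the tags of the main start region per 5 bp, against the distance from the annotated 5′ end nearest to the leading position (bp), for mESCs (blue, upward) and mOPCs (orange, downward), 3 libraries pooled. Trim71 and Msi2 start farther downstream in mOPCs, whereas Zfp36l1 starts at the same place in both.

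The make-up of the ZFP36 family differed between the cell types. Zfp36l1 led in mESCs and Zfp36l2 in mOPCs, while Zfp36 (tristetraprolin) was nearly absent from mOPCs. Summed over the 3 genes, the family had 762 ± 25.5 CPM in mESCs and 238 ± 3.72 in mOPCs, 3.20-fold less (two-sided exact permutation p = 0.1, the smallest that 3 libraries against 3 can give). Zfp36l1 supplied 88.0 ± 0.68% of the family's tags in mESCs and 22 ± 2.25% in mOPCs, and Zfp36l2 supplied 7.66 ± 0.69% and 78.0 ± 2.25%. No library of either cell type came near those of the other in these shares.

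Zfp36l1 (ENSMUSG00000021127.7, chr12:80107754-80113013, minus strand), with 663, 698 and 650 CPM in mESCs, ranked 100 among all genes tested there. Its mOPC levels were 45.7, 53.9 and 57.7. The log2 fold change was −3.74 (SE 0.10, edgeR adjusted p = 1.11e-56), 13.3-fold. The paper lists the same gene identifier among its mOPC markers, whereas here Zfp36l1 was lower in mOPCs. Zfp36l2 (ENSMUSG00000045817.8, chr17:84183931-84187947, minus strand) went the other way, with 63.8, 55.4 and 55.8 CPM in mESCs and 189, 183 and 184 in mOPCs. Its log2 fold change was 1.60 (SE 0.08, edgeR adjusted p = 5.75e-33), 3.03-fold. Zfp36 (ENSMUSG00000044786.6, chr7:28376784-28380253, minus strand) had 33.1, 34.6 and 31.6 CPM in mESCs and 0.046, 0.069 and 0.049 in mOPCs. Only 5 tags were left in mOPCs against 2413, a ratio of 606 with a 95% counting interval of 259 to 1869 (log2 fold change −9.19, SE 0.23, edgeR adjusted p = 3.58e-59). The related gene Zfp36l3 had 9 tags in mESCs and 0 in mOPCs and was not tested.

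**Figure D4:**
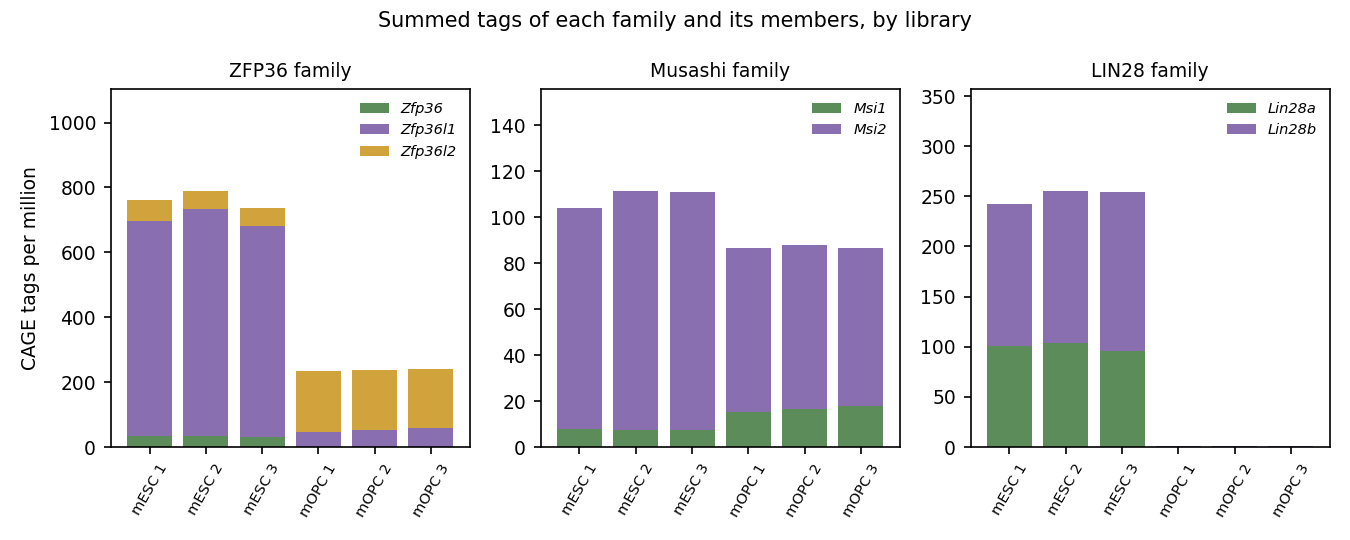
Summed CAGE CPM of the ZFP36, Musashi and LIN28 genes in each library, with stacked segments for the members. The ZFP36 bars pass from mostly Zfp36l1 in mESCs to mostly Zfp36l2 in mOPCs, and the LIN28 bars of mOPCs, at 0.91 or less, are too low to see.

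Start positions of Zfp36l1 were nearly the same in both cell types, with a median that moved by 1 bp. The central 10 to 90% of its tags spanned 4 bp in each of the 6 libraries, against a median over genes of 54 to 56 bp. The same leading position took 43.4% of the tags of the region in mESCs and 39.3% in mOPCs. It is shown at chr12:80112986-80113059 on the minus strand, and the same 4 positions pass 5% of the tags in both cell types, holding 94.5% in mESCs and 95.7% in mOPCs. The start of Zfp36 at chr7:28379229-28379302 on the minus strand is set beside it, with 88.4% of the mESC tags in its 3 capitals.
Zfp36l1 in mESCs and mOPCs: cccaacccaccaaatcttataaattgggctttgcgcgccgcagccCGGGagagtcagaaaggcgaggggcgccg
Zfp36 in mESCs: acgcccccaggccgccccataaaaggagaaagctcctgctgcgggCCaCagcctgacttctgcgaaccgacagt
Zfp36l1 was the only one of the 7 matched genes whose window held TATAAA, the core of the TATA box, on either strand; it begins 28 bases upstream of the leading position. Of 32817 RefSeq windows, 13.6% hold these letters. Variants, such as the ataaaa in the Zfp36 stretch above, were not searched for. CCAAT was found in windows of Lin28b, Msi2, Trim71 and Zfp36l1, and in 37.4% of all windows, and GGGCGG in those of Lin28a, Msi2, Qk, Trim71 and Zfp36, and in 35.6%. The octamer ATTTGCAT was in none of the 9 windows and in 1.74% of all. Zfp36l2 started at the same leading position in both cell types, with a share of 32.0% in mESCs and 39.0% in mOPCs. Its width was 54 to 59 bp in mESCs and 3 bp in mOPCs. A minor position 80 bp upstream held 4.19% of its mESC tags and 0.66% of its mOPC tags.

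The Musashi genes moved in opposite directions, and both by less than the LIN28 genes. Msi1 (ENSMUSG00000054256.11, chr5:115429599-115455698, plus strand), a marker of neural stem cells, had 7.87, 7.20 and 7.49 CPM in mESCs and 15.2, 16.3 and 17.8 in mOPCs. All mOPC libraries stood above all mESC libraries, with a log2 fold change of 1.06 (SE 0.12, edgeR adjusted p = 1.83e-13). Msi2 (ENSMUSG00000069769.13, chr11:88339382-88718513, minus strand) had 96.2, 104 and 103 CPM in mESCs and 71.2, 71.7 and 68.9 in mOPCs, a log2 fold change of −0.59 (SE 0.08, edgeR adjusted p = 4.29e-10). The sum of both was 109 ± 4.04 in mESCs and 87.0 ± 0.88 in mOPCs, and the share of Msi1 in it was 6.93 ± 0.56% and 18.9 ± 1.47%. Msi2 remained the larger part of the family in both lines.

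Msi2 RNAs began farther downstream in mOPCs. The median start lay 39 bp upstream of the nearest annotated 5′ end, chr11:88718229, in every mESC library, and 26, 22 and 9 bp downstream of it in the mOPC libraries, a shift of 58 bp. A position 43 bp upstream led in mESCs with 8.05 ± 0.84% of the tags of the region, against 2.64 ± 0.55% in mOPCs. In mOPCs the lead passed to a position 41 bp downstream, with 5.55 ± 0.49% against 1.00 ± 0.32% in mESCs. The stretch below, chr11:88718180-88718351 on the minus strand, holds both, and capitals again mark positions with at least 5% of the tags in that cell type.
Msi2 in mESCs: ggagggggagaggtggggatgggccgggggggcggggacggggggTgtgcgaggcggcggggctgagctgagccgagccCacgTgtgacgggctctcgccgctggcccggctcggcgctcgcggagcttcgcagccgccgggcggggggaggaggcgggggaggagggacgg
Msi2 in mOPCs: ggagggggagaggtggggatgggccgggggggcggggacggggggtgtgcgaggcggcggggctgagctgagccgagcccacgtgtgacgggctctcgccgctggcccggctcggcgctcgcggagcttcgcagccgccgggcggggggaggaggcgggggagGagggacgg
Capitals held 21.2% of the 7263 mESC tags and 5.46% of the 6375 mOPC tags of the region, so most Msi2 tags lay at positions that each held under 5% of them. Width averaged 139 bp in mESCs and 249 bp in mOPCs. Msi1 started over a broader stretch in mESCs, where widths were 356, 585 and 358 bp, than in mOPCs, where they were 94, 98 and 104 bp. Its mESC widths rest on 117 to 294 tags of the main start region.

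A larger share of Msi2 tags lay within 500 bp of an internal annotated 5′ end in mOPCs, though few did in either cell type. This end belongs to a retained-intron transcript. Its window took 0.22, 0.52 and 0.053% of the tags of Msi2 in mESC libraries, and 1.22, 1.06 and 1.10% of those in mOPC libraries (edgeR diffSpliceDGE, adjusted p = 1.35e-07). These shares are 8, 9 and 1 tags in mESCs and 19, 22 and 31 in mOPCs. With windows of 100 bp this end was not among the regions tested, so starts at the end itself are not shown. Many tags of Msi2 lay inside the gene but over 500 bp from any annotated 5′ end, 58.7 ± 0.35% in mESCs and 50.1 ± 0.77% in mOPCs. The strongest of these positions, chr11:88343418 in an annotated UTR 4036 bp from the gene's 3′ end, had 12.4 CPM in mESCs and 0.58 in mOPCs. An intronic position, chr11:88625634, had 5.28, 7.14 and 6.78 CPM in mESCs and 0 in all mOPC libraries. Counted over the whole gene, Msi2 was lower in mOPCs by a log2 fold change of −0.98.

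Qk (ENSMUSG00000062078.15, chr17:10202601-10319854, minus strand), which encodes the Quaking proteins needed for myelination, was the most abundant of the 10 genes in both lines. It ranked 13 among all genes tested in mESCs and 5 in mOPCs. Its levels were 1404, 1531 and 1516 CPM in mESCs, and 1742, 1647 and 1704 in mOPCs. The mOPC libraries all lie above the mESC libraries, but the log2 fold change of 0.13 (SE 0.09, 95% interval −0.05 to 0.31) did not pass the test (edgeR adjusted p = 0.18). Scaling by library totals alone gave 0.19 (edgeR adjusted p = 0.031), and tags of the whole gene gave 0.26 (edgeR adjusted p = 0.0016). Whether Qk counts as higher in mOPCs therefore depends on the scaling and on the tags counted.

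Within the promoter of Qk, the positions used differed between the cell types. The position that led in mESCs, 57 bp downstream of the annotated 5′ end, took 15.5, 14.4 and 14.4% of the tags of the region in mESCs and 4.16, 3.28 and 3.21% in mOPCs. A position 1 bp upstream of that end took 4.79, 4.63 and 5.00% in mESCs and 12.3, 13.8 and 12.8% in mOPCs. The position between them, at 16 bp, was high in both, with 11.2 ± 0.23% and 13.2 ± 0.49%. The median start moved by 10 bp, and the widths overlapped between the cell types. The stretch chr17:10319320-10319412, on the minus strand, is printed for both cell types to show the upstream positions; the one that led in mESCs lies just outside the RefSeq window.
Qk in mESCs: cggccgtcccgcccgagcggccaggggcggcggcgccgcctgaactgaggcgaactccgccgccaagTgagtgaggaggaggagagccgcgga
Qk in mOPCs: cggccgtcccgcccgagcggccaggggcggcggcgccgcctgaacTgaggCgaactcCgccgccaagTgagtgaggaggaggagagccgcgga
The 1 capital of mESCs held 11.1% of the tags of the region, and the 4 of mOPCs held 37.6%.

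Use of the annotated starts of Qk differed between the cell types (edgeR diffSpliceDGE, adjusted p = 3.97e-07 for the gene). The inner start region at chr17:10213074-10214074 gained but stayed minor, at 0.21 ± 0.02% of Qk tags for mESCs and 0.37 ± 0.02% in mOPCs (adjusted p = 1.11e-06 for the region). The other inner region, chr17:10282433-10283433, had 0.28 ± 0.02% and 0.36 ± 0.01%. Its adjusted p of 0.037 rose to between 0.051 and 0.154 with each library left out in turn and to 0.139 without the filter, and its relative change turned from 0.25 to −0.14 on the log2 scale with windows of 100 bp. Tags inside Qk but over 500 bp from its annotated 5′ ends made up 3.92, 2.98 and 2.96% in mESCs and 14.6, 15.6 and 15.0% in mOPCs. An intronic position, chr17:10317906, had 0.34 CPM in mESCs and 4.21 in mOPCs, and another, chr17:10318061, had 1 tag in all mESC libraries together and 2.47 CPM in mOPCs. Zfp36l1 also had a larger share of such tags in mOPCs, 5.05 ± 0.03% against 2.05 ± 0.12%. In all, 3 of the 6 regulators with at least 50 tags inside the gene in every library had shares that did not overlap between the cell types, Qk, Zfp36l1 and Msi2. The shares of Trim71, Msi1 and Zfp36l2 overlapped. The count of 3 became 5 without replicate 1 of mESCs and 5 without replicate 1 of mOPCs. Of 10307 genes with such depth, 71.5% did not overlap, and 58.2% did not overlap and were higher in mOPCs, and the median share was 4.81 to 5.30% in mESCs and 8.27 to 8.77% in mOPCs.

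Esrp1 (ENSMUSG00000040728.15, chr4:11331933-11386783, minus strand), an epithelial splicing regulator, had a single tag near its 5′ ends in mOPCs. Its levels were 26.1, 24.8 and 23.6 CPM in mESCs and 0, 0.035 and 0 in mOPCs. With 1836 tags against 1, the ratio was 2307, with a 95% counting interval of 414 to 91171 (log2 fold change −10.70, SE 0.30, edgeR adjusted p = 1.96e-55). Inside the gene, mOPCs had 23 tags, of which 22 lay over 500 bp from an annotated 5′ end, and counted over the whole gene the log2 fold change was −6.78. The mOPC tag near a 5′ end lay at an inner annotated end, and the main start region had 1834 tags in mESCs and 0 in mOPCs, at least 768-fold fewer. Its paralogue Esrp2 had 10.4 ± 0.45 CPM in mESCs and 0 tags in mOPCs, at least 323-fold fewer.

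The pathways around these genes were described by 7 gene lists, 104 genes in all, of which 3 did not pass the filter on low counts. Of the tested genes of all lists together, 44 were higher in mOPCs and 50 lower, near the shares of all genes tested given above. Shares of single lists are given beside their counts, to be read against 43.4% higher and 47.8% lower among all genes tested. No list was tested as a set, and the lists were chosen with earlier results of these data known. Every gene of these lists that is named below passed the test (edgeR adjusted p of 2.64e-06 or less). Among 16 genes that process or use let-7, 9 were higher in mOPCs (56.25%) and 6 lower (37.5%), and their median log2 fold change was 0.25. Ago4, an Argonaute, rose from 1.39 ± 0.21 to 11.1 ± 1.00 CPM (log2 fold change 2.91), and Prkra, a partner of Dicer, from 11.7 ± 1.68 to 51.4 ± 0.63 (2.08). Xpo5, the exporter of microRNA precursors, fell by 0.85 on the log2 scale and Ago3 fell by 0.48.

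Among 14 genes known as let-7 targets, 10 were lower in mOPCs (71.4%) and 4 higher (28.6%), with a median log2 fold change of −1.34. Of all genes tested, 47.8% were lower and 43.4% higher, with a median of −0.12. A part of let-7 in these levels was not tested. Igf2bp1, an oncofetal mRNA-binding protein, had 249 ± 8.51 CPM in mESCs and 0 tags in mOPCs, at least 7620-fold fewer. Igf2bp3 had 2948 tags in mESCs and 2 in mOPCs, a ratio of 1852 with a 95% counting interval of 512 to 15301. The growth regulators Myc and Ccnd1 (cyclin D1) were the largest in the other direction. Myc had 23.5 ± 1.84 CPM in mESCs and 364 ± 24.1 in mOPCs (log2 fold change 3.88), and Ccnd1 had 19.4 ± 1.74 and 189 ± 14.8 (3.23).

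Among 21 genes of deadenylation and decapping, the machinery that ZFP36 proteins recruit, 8 were higher (38.1%) and 10 lower (47.6%) in mOPCs. These shares are near the 43.4% and 47.8% of all genes tested. Pabpc1, the cytoplasmic poly(A)-binding protein, had 2878 ± 137 CPM in mESCs and 144 ± 26.8 in mOPCs (log2 fold change −4.39), and Dcp2, which encodes the decapping enzyme, had 426 ± 34.1 and 72.2 ± 7.0 (−2.62). The poly(A) nuclease subunits Pan2 and Pan3 were both higher in mOPCs, by 1.71 and 1.70 on the log2 scale. Of the 8 other AU-rich element binding genes, 3 were higher (37.5%) and 4 lower (50%), also near the shares of all genes tested. Tial1 rose from 94.6 ± 1.63 to 855 ± 40.6 CPM (log2 fold change 3.11) and Tia1 from 41.8 ± 3.41 to 205 ± 8.15 (2.23), whereas Elavl2 fell from 140 ± 5.55 to 60.7 ± 8.18 CPM and Khsrp from 118 ± 6.92 to 62.3 ± 5.10.

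Of 23 other splicing regulators tested, 11 were higher (47.8%) and 10 lower (43.5%) in mOPCs. The shares of all genes tested were 43.4% and 47.8%. Rbfox1, a neural splicing factor, had 0.12 ± 0.04 CPM in mESCs and 55.3 ± 2.39 in mOPCs (log2 fold change 8.85), and Khdrbs2 had 1.67 ± 0.17 and 50.6 ± 3.06 (4.89). Rbm47 had 43.9 ± 3.22 CPM in mESCs and 0 tags in mOPCs, at least 1344-fold fewer. Celf4 had 5964 tags against 4, a ratio of 1874 with a 95% counting interval of 731 to 6878.

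Translational regulators gave 7 higher (46.7%) and 8 lower (53.3%) genes of 15 tested, near the 43.4% and 47.8% of all genes tested. Cpeb1 rose from 2.45 ± 0.05 to 87.9 ± 7.33 CPM (log2 fold change 5.10) and Samd4 (Smaug) from 2.06 ± 0.25 to 67.7 ± 1.51 (4.93). The germ cell genes Dazl and Dnd1 were at 22.2 ± 0.43 and 8.24 ± 1.04 CPM in mESCs. In mOPCs Dazl had 0 tags, at least 676-fold fewer, and Dnd1 had 0.063 ± 0.015 CPM (log2 fold change −6.93). Of the TRIM71 relatives, Trim2 went from 117 ± 3.33 to 8.93 ± 0.56 CPM (log2 fold change −3.77), while Trim3 rose by 2.08 and Trim32 by 1.41 on the log2 scale.

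**Figure D5:**
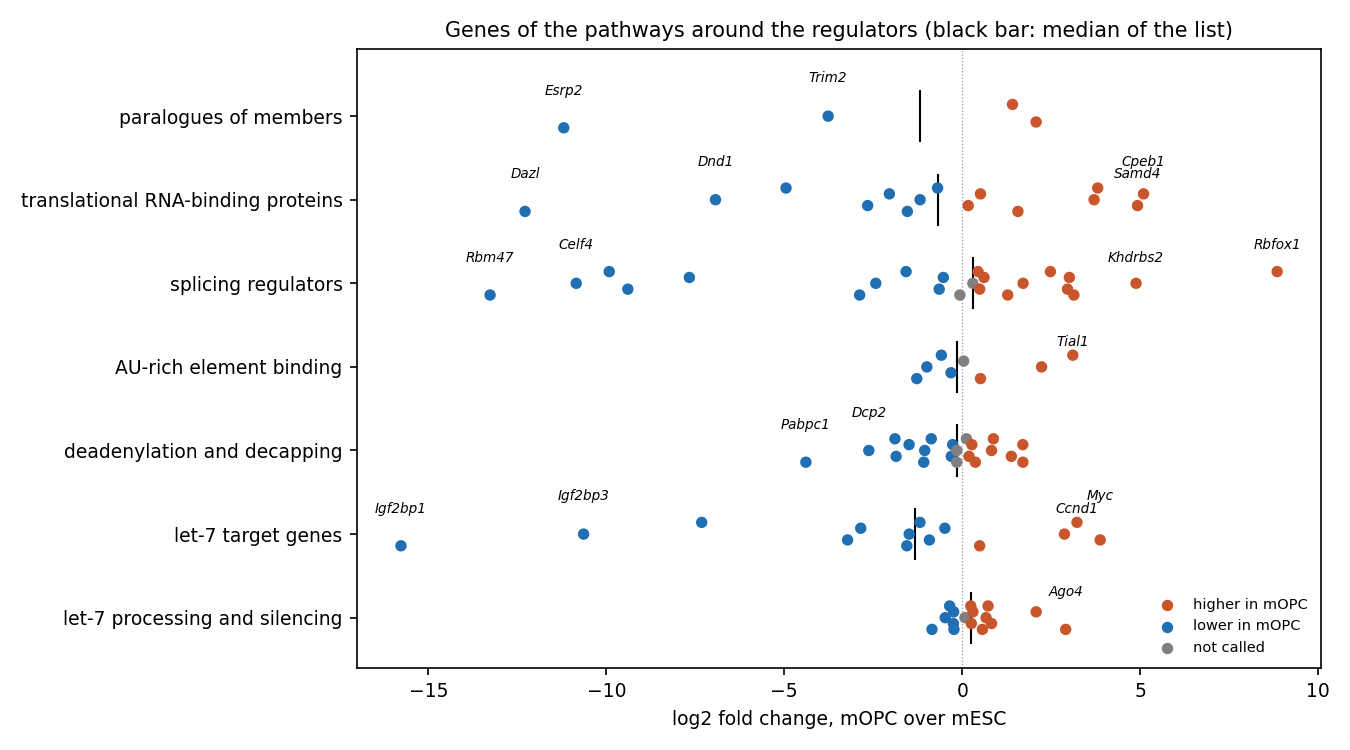
Log2 fold change, mOPCs over mESCs, of each tested gene in the 7 lists (orange, higher in mOPCs; blue, lower; gray, not called), with the median of each list as a black bar. Medians lie between −1.34 for let-7 targets and 0.30 for splicing regulators, and single genes reach −15.77 (Igf2bp1, a fitted value with 0 tags in mOPCs that is no measure of size) and 8.85 (Rbfox1).

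Markers of other cell types were summed over the same libraries. Oligodendrocyte markers had 22.8 to 25.3 CPM in mESCs and 312 to 344 in mOPCs, and 5 of 6 were higher there. Cnp reached 61.9 ± 2.59 CPM in mOPCs, while Mobp had 0.17 ± 0.071. Neuronal markers had 17.2 to 19 and 235 to 282 CPM, with 2 of 5 higher in mOPCs, Map2 and Syt1, while Rbfox3 and Snap25 had 0 tags in mOPCs. Astrocyte markers had 46.7 to 50.7 and 96.1 to 110 CPM, with 3 of 4 tested higher in mOPCs, of which Slc1a3 had 89.5 ± 6.81 and Gfap 0.99 ± 0.16. Markers of microglia stayed at or below 2.43 and those of fibroblasts at or below 12.3 CPM. Of the primitive endoderm markers, Gata4, Gata6 and Sox17 were lower in mOPCs, where Gata6 and Sox17 had 0 tags and Gata4 had 0.020 ± 0.018 CPM. Dab2 was higher there, at 58.7 ± 3.10 against 47.5 ± 6.31 CPM, and made up most of the list sums of 64.8 to 80.3 CPM in mESCs and 56.4 to 62.3 in mOPCs. The part of such cells or states in the levels of Msi1, Zfp36l2 and the other higher genes was not tested.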

How the data were processed

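The authors captured capped nuclear RNA, sequenced tags from their 5′ ends, and aligned them to mm10. The methods name bowtie and unique alignments, while the submitters' processing notes list CASAVA 1.8 and BWA 0.5.9. Deposited values are raw counts, the number of tags per position and strand in each library, without normalization.

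Tags within 500 bp of any GENCODE vM21 5′ end (GRCm38, the assembly of mm10) were summed per gene on its strand. Scripts ran in Python 3.11.15 (pandas 2.3.3, numpy 2.4.6, scipy 1.17.1, matplotlib 3.10.9). Counts of mOPCs and mESCs were compared with R 4.3.3 and edgeR 4.0.16 (TMM, filterByExpr, robust quasi-likelihood fit, cell type as the only term, Benjamini-Hochberg adjusted p under 0.05 over all genes). Start regions were windows of 500 bp that were merged where they overlapped, and their use was tested with diffSpliceDGE. Single values were compared by exact two-sided permutation tests, whose smallest p is 0.1 with 3 libraries a group. Intervals of tag ratios are 95% exact binomial and cover counting error only, as tags carry no molecular identifiers. The 95% interval of the log2 fold change of Qk is instead a normal interval from its SE. The tests were also run on simulated counts with known changes in a small part of the genes. Most genes differ between these cell types, so that simulation does not cover the scaling. DESeq2 1.42.0 was the other tool.

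Depths are given with the results and limit genes with few tags in mOPCs. Replicates differed by more than sampling noise, with chi-square values of 4.52 to 10.9 per degree of freedom. The 10 genes and the lists were chosen with earlier results of these data known. Named genes of the lists are at most 2 per direction with the largest log2 fold change among called genes whose libraries do not overlap and that reach a mean of 1 CPM in the higher cell type, with paralogues and markers. Alternatives were another scaling, tool, filter, window, set of 5′ ends or depth, a replicate block, and each library left out. The median start position, and leaving out libraries for tags inside genes, were added after the data were seen. The RNA–chromatin contact maps were not analysed here.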

Additional observations from a re-analysis of the deposited data

How the results depend on the processing

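Calls of 9 of the 10 regulators were the same under all 15 alternatives tried for each. Qk alone changed its call, with a log2 fold change of 0.19 and 0.26 in place of 0.13 when library totals were used without TMM or when tags of the whole gene were counted; its range was 0.04 to 0.26 over all alternatives and 0.07 to 0.17 with each library left out. Without a filter on low counts, 4370 genes of 10135 in place of 2442 of 3373 differed in the use of annotated starts, with more genes tested. The count of regulators whose share of tags inside the gene did not overlap ranged from 3 to 5 with each library left out, an alternative chosen after seeing the data. The size of some changes depends on the tags counted: the log2 fold change of Trim71 was −4.40 with windows of 100 bp in place of −2.92, and that of Esrp1 was −6.78 with tags of the whole gene in place of −10.70. Fitted values under alternatives that leave 0 tags in mOPCs, as for the coding 5′ end of Lin28b or for Esrp1 without replicate 2 of mOPCs, measure no size and are not given.

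Replicate numbers are shared between the cell types in the labels, but same-numbered libraries deviated together with correlations of 0.0023, 0.097 and 0.0087 only, so the numbers were not taken as pairs. With the replicate block, 7228 genes were higher and 7996 lower in mOPCs, against 7251 and 7992 without it, 2417 genes differed in the use of starts, and Qk stayed uncalled at 0.13 (edgeR adjusted p = 0.18). No call of a regulator changed under the block.

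What the depth limits are genes near 0: over the pooled 91692553 mOPC tags, a count of 0 allows up to 0.0327 CPM.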
